A study of Mus musculus with 8 samples.

Results

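Calcium chelation and loss of CD14 were compared directly in mouse bone marrow-derived macrophages after 24 h of lipopolysaccharide (LPS), a component of the bacterial outer membrane. The comparison rests on 2 of the 8 arrays of the series. One held wild-type cells that received LPS together with EGTA, which binds calcium ions in the medium, and the other held CD14-deficient cells that received LPS alone. The wild-type cells came from C57BL/6 mice and the CD14-deficient cells from Cd14-/- C57BL/6 mice, aged 6 to 8 weeks in both cases. Bone marrow was grown for 7 days in medium with 10% serum and M-CSF, a growth factor that directs marrow progenitors to become macrophages. LPS was used at 1 µg/ml, and the label of the EGTA sample gives 2 mM EGTA. The remaining 6 arrays were wild type without stimulus and with LPS for 6 h and 24 h, wild type with LPS and EGTA for 6 h at a concentration that its label does not state, and CD14-deficient cells without stimulus and with LPS for 6 h. EGTA without LPS and EGTA on CD14-deficient cells were not analysed here. The arrays compared therefore differ both in genotype and in EGTA, and these cannot be told apart in their direct difference. Each group had 1 array, so the differences below have no replicate check and carry no p-value. The precision is limited by the number of arrays.

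CD14 is a surface protein that binds LPS and hands it to the receptor complex of TLR4 and MD-2. Besides raising sensitivity to LPS, it is known to help carry TLR4 into endosomes, where the adaptor TRIF starts production of interferon-beta, which in turn induces a large set of interferon-stimulated genes. Calcium entering the cell activates the phosphatase calcineurin, which lets NFAT transcription factors enter the nucleus. The series' design text presents EGTA and CD14 deficiency as conditions that share a block of calcium entry while differing in their other effects.

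The labels were checked first on Cd14 itself. Its intensity was 5998 with EGTA at 24 h, 11088 with EGTA at 6 h, and 3849, 12515 and 8564 in wild type at 0 h, 6 h and 24 h. The 3 arrays labelled CD14-deficient all stood at 38.4, the floor to which all dimmer values were raised, so at 24 h it was at least 156-fold higher with EGTA. The sources used here do not say whether its probe set lies within the deletion. Of 12 macrophage markers 11 were measured, and their intensities above the floor summed to 84429 with EGTA and 79515 in the CD14-deficient array. Cd14 itself is among them. It gave 5998 to the first sum and nothing to the second, which is more than the gap between the sums. Adgre1, which encodes the F4/80 antigen, stood at 8564 and 13530, and Csf1r, the M-CSF receptor gene, at 9635 and 11646. Mertk was at least 2-fold higher with EGTA, at 2042 and 891. The defining T cell genes Cd3e, Cd3d, Cd3g and Cd8a, the B cell genes Cd79a, Cd79b, Ms4a1 and Pax5 and the natural killer cell gene Ncr1 were at the floor on both arrays. The 8 T cell markers measured summed to 2971 with EGTA and 1075 without CD14, of which Il7r gave 2835 and 1011 and Cd4 136 and 64.2. Among natural killer cell markers Klrk1 stood at 414 against the floor. Of 9 B cell markers measured 6 were at the floor on each array, while Blnk stood at 4173 and 5205, Cd22 at 122 and 83 and Ighm at 52 and 57.1. Of 10 mast cell and basophil markers measured 8 were at the floor with EGTA and 9 without CD14, and Hdc stood at 673 and 149. Of 12 neutrophil markers measured 7 were at the floor on each array, and their summed level was 2812 with EGTA and 2136 without CD14. Camp and Mmp9 were at the floor with EGTA and at 107 and 210 in the CD14-deficient array, while Csf3r stood at 2166 and 1246. Of 9 dendritic cell markers measured 7 were at the floor on each array, with summed levels of 282 and 480. The part of such cells in the differences was not tested, and in bulk RNA fewer cells of a type and less RNA per cell cannot be told apart. Labelled cRNA yield was 31.4 µg for the EGTA sample, the lowest of the 8, and 53.2 µg for the CD14-deficient sample, and the RNA integrity numbers were 9.5 and 9.7. The part of yield in the differences was not tested.

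Of 6850 genes compared, those whose brighter array exceeded an intensity of 88.2, 417 were at least 2-fold higher with EGTA than in CD14-deficient cells and 384 were at least 2-fold lower. These are 6.09% and 5.61% of the genes compared, which is the background against which the gene groups below are read. Among the higher genes 70 differed at least 4-fold and 20 at least 8-fold, and among the lower genes 35 and 1. In 48 of the higher and 37 of the lower genes the dimmer array was at the floor, so their folds are bounds. The median log2 difference of all genes compared was -0.01, and 95% of them lay between -1.32 and 1.54. How the arrays are scaled to each other moves the split between the directions. Of the genes at least 2-fold different 52.1% were higher after quantile normalization, against 26.6% with intensities as deposited (278 higher and 768 lower, with an all-gene median of -0.26) and 62.8% with equal array medians (571 and 338, with 0.11).

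**Figure D1:**
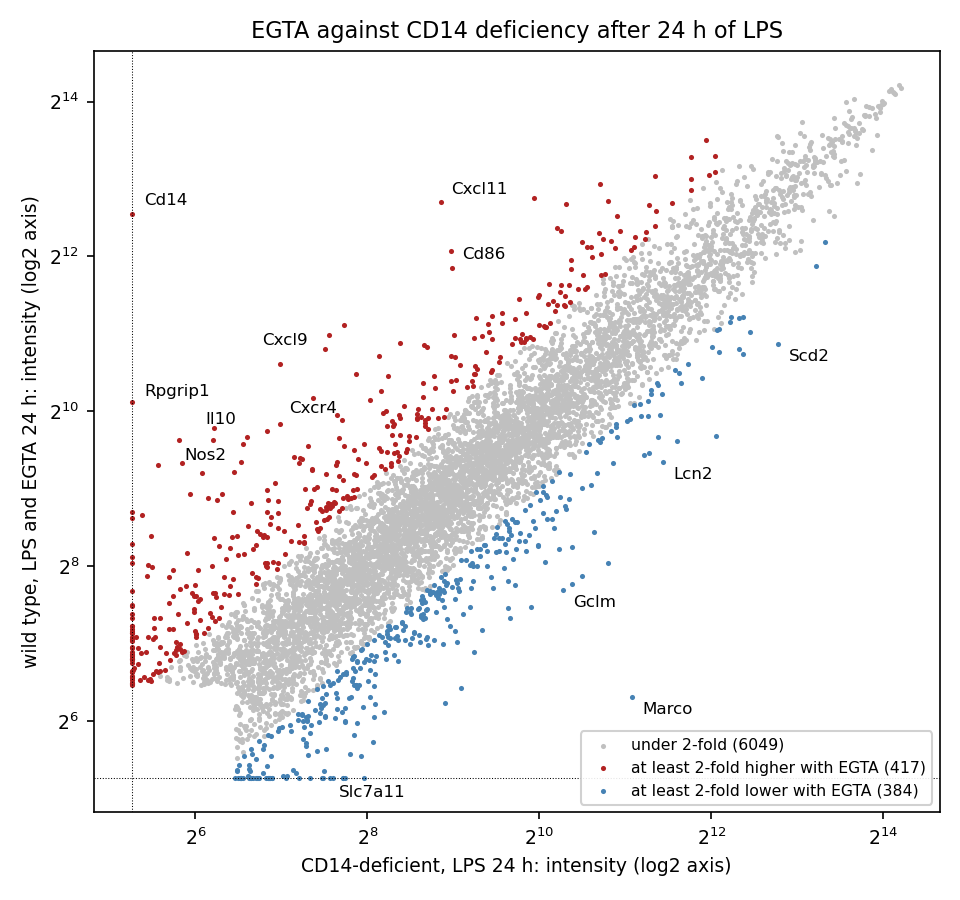
Intensity of each compared gene in CD14-deficient macrophages (x axis) and in wild-type macrophages with EGTA (y axis), both after 24 h of LPS, on log2 axes; 1 array each, with the floor of 38.4 as dotted lines. The 417 genes at least 2-fold higher with EGTA lie above the cloud with Cd14 and Cxcl11 among them, and the 384 at least 2-fold lower lie below it, with Marco farthest from it.

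The wild-type array with LPS alone at 24 h shows on which side each gene departed. EGTA gave 69 genes at least 2-fold higher than that array and 75 lower of 6754 compared, or 1.02% and 1.11%. CD14 deficiency gave 357 higher and 425 lower of 6846, or 5.21% and 6.21%. Both differences share the wild-type array, so they are set side by side and no overlap between them is drawn. Of the 417 genes higher with EGTA than without CD14, EGTA stood within 2-fold of wild type in 389 and CD14 deficiency in 120. In 288 of them the EGTA array lay within 2-fold of wild type and the CD14-deficient array beyond it, in 19 the reverse held, in 101 both lay within 2-fold and in 9 both beyond. The 384 lower genes divided in the same order into 205, 37, 136 and 6. The choice of these genes by the direct difference fixes in part where the arrays lie around wild type, so these counts are a description.

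Genes that LPS itself had raised in wild-type cells made up much of the higher group. Between 0 h and 24 h of LPS in wild type, 740 of 6965 genes gained at least 2-fold (10.6%) and 742 lost as much (10.7%). Of 386 of the higher genes compared in those arrays, 250 (64.8%) were at least 2-fold induced and 14 (3.63%) repressed. Of 361 of the lower genes, 23 (6.37%) were induced and 179 (49.6%) repressed. Neither wild-type array enters the direct difference. EGTA-treated cells are wild type too, so a gene's response in wild type and its level with EGTA share the genotype.

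**Figure D2:**
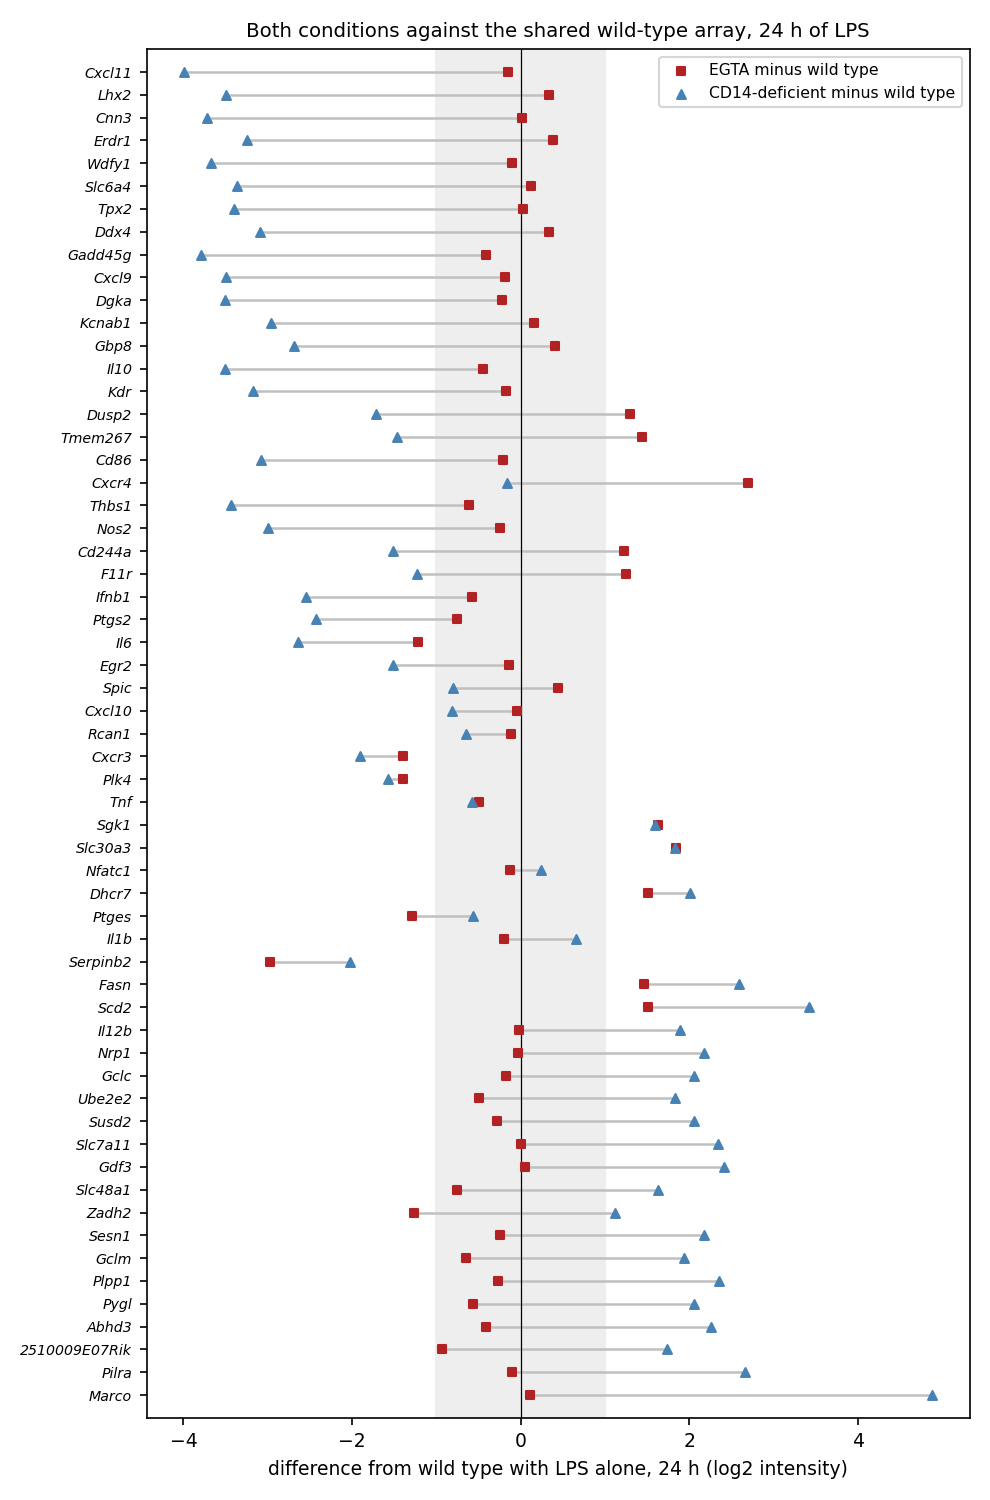
Log2 differences of EGTA (squares) and of CD14 deficiency (triangles) from the shared wild-type array at 24 h of LPS, 1 array each, for named genes; the grey band marks differences under 2-fold. For Cxcl11 the square lies at -0.15 and the triangle at -3.99, for Marco at 0.11 and 4.88, and Cxcr4 has the reverse layout with 2.69 and -0.16.

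The chemokines that attract activated T cells through CXCR3 gave some of the widest gaps. Cxcl11 had an intensity of 6649 with EGTA and 462 without CD14 at 24 h, beside 7371 in wild type with LPS alone. At 6 h the same arrays stood at 5713, 843 and 4533, and the unstimulated levels were 78.5 in wild type and the floor in CD14-deficient cells. The EGTA array thus lay 14.4-fold above the CD14-deficient one at 24 h, a log2 difference of 3.85, after 2.76 at 6 h. Cxcl9 stood at 1788 with EGTA, 182 without CD14 and 2039 in wild type at 24 h, and at 1244, 134 and 1217 at 6 h, so it was 9.83-fold higher with EGTA. Both genes held their wild-type level with EGTA and lay far below it without CD14. Cxcl10, the third ligand of CXCR3, was much brighter and differed less, with 11965 with EGTA, 7035 without CD14 and 12396 in wild type, a log2 difference of 0.77. Its unstimulated gap was wider, with 511 in wild type and the floor in CD14-deficient cells, at least 13.3-fold. Cxcl9 was dim before LPS, at 47 in wild type and the floor without CD14. Among CC chemokines 2 of 12 compared genes were higher and none lower, namely the monocyte attractant Ccl8 (7835 against 1663, 4.71-fold) and Ccl17 (412 against 124, 3.33-fold). Both were also apart before LPS. Ccl8 then stood at 2254 in wild type and 68.1 without CD14 (33.1-fold), and Ccl17 at 119 and the floor (at least 3.09-fold).

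Interferon-stimulated genes as a group stood higher with EGTA, by small amounts for most members. Ifnb1, the interferon-beta gene, had 150 with EGTA, the floor without CD14 and 224 in wild type with LPS alone at 24 h, so it was at least 3.90-fold higher with EGTA. At 6 h its levels were 209, 66.8 and 214, and it was at the floor in both unstimulated arrays. Of 30 type I interferon response genes, 5 passed 2-fold upward and none downward, and the median log2 difference was 0.54, or 0.80 and 0.79 relative to all genes with deposited intensities and with equal medians. All 30 lay above 0 after quantile normalization. The count depended on scaling, with 4 as deposited and 13 with equal medians. It also depended on the probe set. Other probe sets of Rsad2 (13875 against 6895), Stat2 (2219 against 1068), Cmpk2 (10243 against 4613) and Tor3a (2548 against 1075) passed 2-fold upward where those used did not. The antiviral GTPase gene Mx2 led with 1672 against 281 (5.94-fold), and Mx1 stood at 10082 against 4214 (2.39-fold). The exonuclease gene Isg20 had 9931 against 3471, and the oligoadenylate synthetase family genes Oasl1 and Oas2 had 6612 against 2978 and 3484 against 1731. The same 30 genes had been apart before LPS by far more, with a median log2 difference of 2.79 for wild type over CD14-deficient and all 30 at least 2-fold, in 2 arrays that share none with the 24 h pair. At 6 h of LPS the EGTA array lay above the CD14-deficient one by a median of 0.46, and 3 of the 30 passed 2-fold. Of 12 guanylate-binding and immunity-related GTPase genes and their regulators, 4 were higher and none lower, and the median was 0.84. As deposited 3 were higher, and with equal medians 8. The 4 were Ciita, the master regulator of MHC class II genes, at 195 against 64.2, Iigp1 at 11601 against 3934, the transcription factor gene Irf1 at 4703 against 1825, and Irgm2 at 4791 against 2393. Before LPS 9 of 11 compared genes of this list were at least 2-fold higher in wild type than in CD14-deficient cells, with a median of 2.80. Iigp1 then stood at 1320 against 53.9, Irgm2 at 1155 against 223 and Irf1 at 580 against 443, and Ciita was at the floor on both arrays. Gbp8, another guanylate-binding protein gene, was among the widest gaps, with 4289 against 501 at 24 h, 1738 against 213 at 6 h and 760 against 121 before LPS. Near-identical members of such families can share signal on a probe set, which was not tested.

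Promoter windows from RefSeq (build GRCm38.p6, 250 bases before to 50 after each start) were searched for 6 short motifs on both strands. The interferon-stimulated response element, to which interferon-activated factors bind, was written as GAAANNGAAA. It occurred in 3.44% of 32851 windows, and in at least 1 window of 27 of the 320 higher genes with a promoter (8.44%), 7 of 316 lower genes (2.22%) and 237 of all 5659 compared genes with one (4.19%). The kB site GGGANNTTCC occurred in 3.12% of higher, 0.949% of lower and 1.91% of all compared genes, and in 1.47% of windows. For the gamma-activated site TTCNNNGAA the shares were 10%, 9.81% and 8.39%, with 8.3% of windows, and for the NFAT core TGGAAA 23.4%, 21.5% and 19.5%, with 21.4% of windows. These shares describe letters in a window and were not tested. The windows of Socs1, a feedback inhibitor of cytokine signalling, and of one of 3 RefSeq starts of Kcnab1, a potassium channel subunit gene, are shown because among the higher genes with a response element these carried overlapping matches and wide differences. Another of the Kcnab1 starts, in the window chr3:64948962-64949261, had 1 match beginning 30 bases before it and is not shown. Capitals mark the matches in the windows shown. Those of Socs1 begin 83 and 77 bases before the start in the window chr16:10785487-10785786 on the minus strand, and those of Kcnab1 begin 90 and 84 bases before it in chr3:65187853-65188152 on the plus strand, where they read on the opposite strand.
Socs1: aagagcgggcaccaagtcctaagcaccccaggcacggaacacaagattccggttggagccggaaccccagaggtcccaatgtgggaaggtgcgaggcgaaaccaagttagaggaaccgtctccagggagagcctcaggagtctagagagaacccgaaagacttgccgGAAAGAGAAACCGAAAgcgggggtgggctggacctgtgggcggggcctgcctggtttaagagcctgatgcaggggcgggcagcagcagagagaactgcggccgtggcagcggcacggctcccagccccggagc
Kcnab1: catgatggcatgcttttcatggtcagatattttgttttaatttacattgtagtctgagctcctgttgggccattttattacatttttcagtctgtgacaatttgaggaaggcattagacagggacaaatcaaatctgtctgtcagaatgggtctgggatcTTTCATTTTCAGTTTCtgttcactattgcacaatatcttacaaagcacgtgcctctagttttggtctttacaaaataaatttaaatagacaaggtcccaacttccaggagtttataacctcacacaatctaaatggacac
Socs1 had an intensity of 1135 with EGTA, 261 without CD14 and 940 in wild type at 24 h, and 850, 298 and 711 at 6 h. Its EGTA array lay 4.36-fold above the CD14-deficient one at 24 h. Kcnab1 had 586, 67.6 and 525 at 24 h and 296, 106 and 283 at 6 h, and was 8.66-fold higher with EGTA. None of the matched starts is known from these arrays to be the one in use.

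Inflammatory cytokine genes went in both directions. Of 15 compared, 5 were higher with EGTA and 1 was lower, with a median log2 difference of 0.62. Il10, an anti-inflammatory cytokine gene, had 813 with EGTA, 97.1 without CD14 and 1107 in wild type at 24 h, and 1894, 684 and 2223 at 6 h, so its gap widened from a log2 difference of 1.47 to 3.07. In CD14-deficient cells Il10 thus lay far below both wild-type arrays at 24 h. The alarmin gene Il33 had 143 with EGTA and the floor without CD14 at 24 h, after 383 and 39.7 at 6 h. Edn1, which encodes the vasoconstrictor endothelin, stood at 136 against 46.2 at 24 h after 946 against 1157 at 6 h. Il12b, which encodes a subunit shared by interleukins that steer T cells, was the lower one, with 62.6 with EGTA, 235 without CD14 and 63.4 in wild type at 24 h. Tnf stood at 2507 with EGTA and 2360 without CD14, a log2 difference of 0.09, and at 3398 against 8213 at 6 h. Il1b stood at 4698 against 8461, or -0.85, after 3672 against 13064 at 6 h. At 6 h these cytokine genes had a median of -0.38, with 2 of 15 higher with EGTA and 4 lower.

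**Figure D3:**
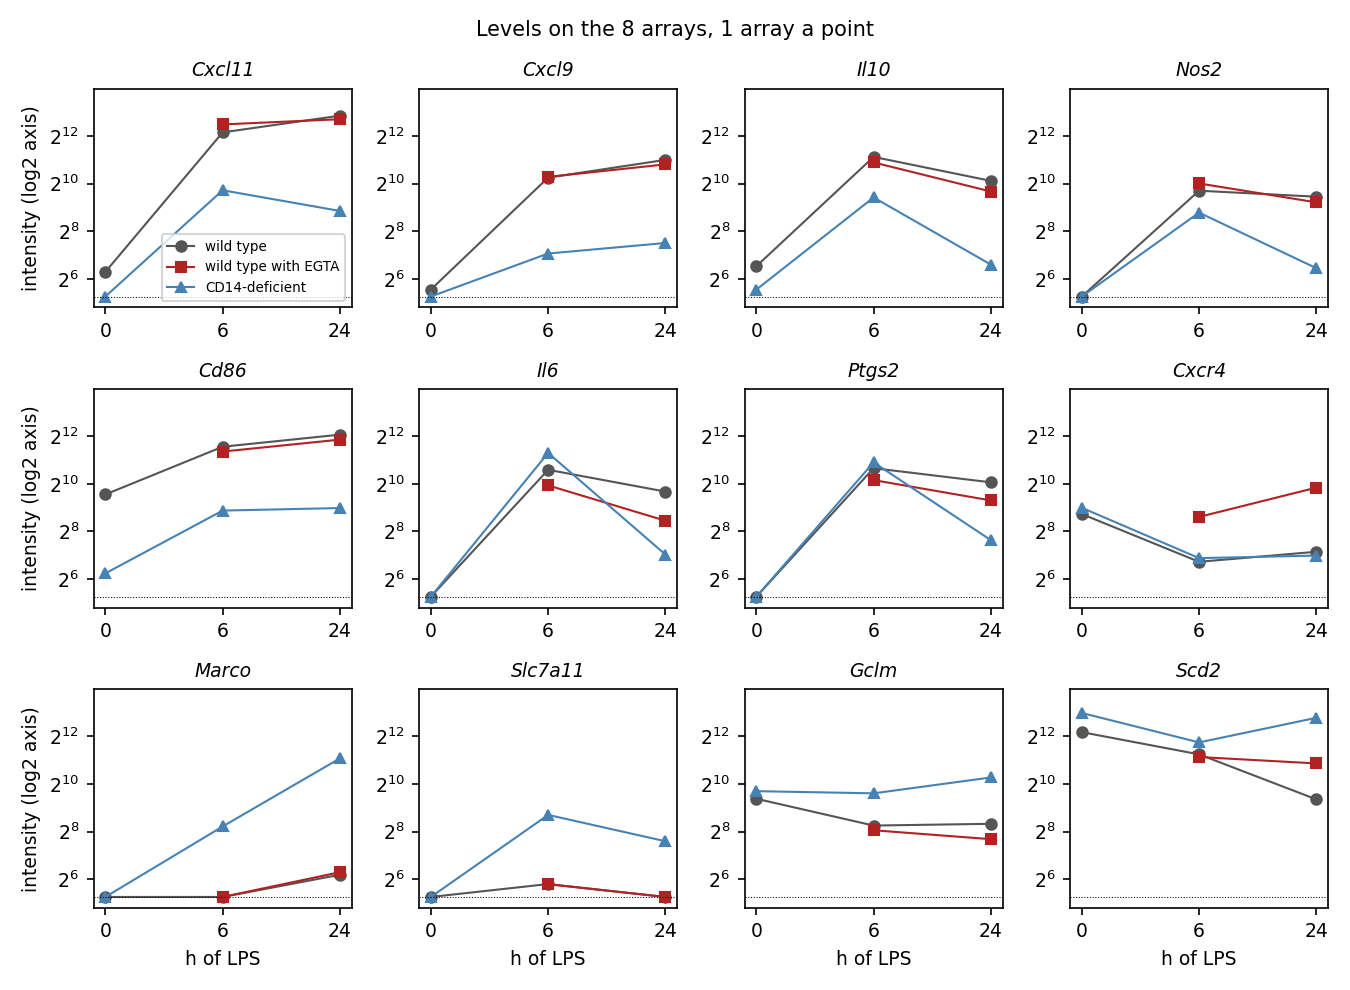
Intensity on a log2 axis against hours of LPS (the 3 times drawn equally spaced, not to scale) for 12 named genes in wild type, wild type with EGTA and CD14-deficient cells; each point is 1 array, lines join the arrays of one condition and the dotted line is the floor of 38.4. Cxcl11, Cxcl9, Il10, Nos2 and Cd86 with EGTA follow wild type, Il6 and Ptgs2 without CD14 start above EGTA at 6 h and end below it, Cxcr4 is raised with EGTA alone, and Marco and Slc7a11 without CD14 alone.

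Effector enzymes of activated macrophages also differed. Nos2, the inducible nitric oxide synthase gene, had 593 with EGTA, 87.5 without CD14 and 699 in wild type at 24 h, a 6.78-fold gap after 1027 against 440 at 6 h. Slc7a2, an arginine transporter gene, went the other way and stood at 419 with EGTA, 1175 without CD14 and 1091 in wild type. Here the EGTA array was the one that departed from wild type. Srm, the spermidine synthase gene, had 166 with EGTA and 551 without CD14, while Sat1 of the same list was higher, at 8523 against 4029. Of the 12 nitric oxide and arginine metabolism genes compared 3 were higher and 2 lower, with a median of 0.11. Of 11 prostaglandin and leukotriene genes compared, 1 was higher and 3 lower, with a median of -0.37. Ptgs2, the inducible cyclooxygenase gene, had 631 with EGTA, 199 without CD14 and 1068 in wild type at 24 h, and 1140, 1907 and 1612 at 6 h. Ptges, the synthase gene downstream of it, stood at 1106 with EGTA, 1829 without CD14 and 2711 in wild type, a log2 difference of -0.73 at 24 h and -1.73 at 6 h. The prostaglandin receptor genes Ptger2 and Ptger4 were lower with EGTA, at 101 against 262 and 858 against 1820, although another probe set of Ptger4 lay at a log2 difference of -0.44.

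Genes for presenting antigen to T cells formed the list with the highest share of calls among those with at least 5 genes. Of 9 MHC class II presentation genes, 6 passed 2-fold upward with EGTA and none downward, and the median log2 difference was 1.38. H2-Eb1 had 2232 with EGTA, 677 without CD14 and 1425 in wild type at 24 h, and the invariant chain gene Cd74 had 8414, 2602 and 5667. At 6 h H2-Eb1 stood at 413 against 355 and Cd74 at 1882 against 1080, so most of the gap appeared between the times. H2-Aa and H2-Ab1 stood at 4075 against 1560 and 3063 against 1403 at 24 h. Both lay above the wild-type arrays, at 3018 and 2089, with EGTA and below them without CD14, each by under 2-fold. Before LPS 5 of 7 compared genes of this list were higher in wild type than in CD14-deficient cells, with a median of 2.11. The 14 MHC class I processing genes all differed by under 2-fold by the probe set used, with a median of 0.32, and 2 of them passed 2-fold with equal medians. Dimmer probe sets of the peptide transporter gene Tap1 (166 against 66.9), of Tapbpl (157 against 64.4) and of H2-D1 (415 against 168) passed 2-fold. Of 15 costimulatory and checkpoint genes 6 were higher and 1 lower, with a median of 0.81. Cd86, a ligand of CD28 on T cells, had 3697 with EGTA, 506 without CD14 and 4273 in wild type at 24 h, and 2613, 470 and 3006 at 6 h. Its gap was 7.30-fold at 24 h and 5.56-fold at 6 h. Cd86 was already apart before LPS, at 751 in wild type and 75.7 in CD14-deficient cells, or 9.91-fold. Tnfsf4, which encodes OX40 ligand, had 233 against 43.2 at 24 h and 363 against 275 at 6 h. Cd83 stood at 747 against 212 at 24 h and 3664 against 3383 at 6 h, and Cd274, which encodes PD-L1, at 8207 against 3484 at 24 h. Vsir, a checkpoint gene, was the lower member, at 362 against 730.

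Of 20 inhibitors that limit LPS signalling, 7 were higher with EGTA and 1 lower, with a median of 0.62, and 18 lay above 0. Dusp2, a phosphatase gene that acts on MAP kinases, had 489 with EGTA, 61.1 without CD14 and 200 in wild type at 24 h, and 1096, 177 and 340 at 6 h. It was one of 4 genes at least 2-fold above wild type with EGTA and at least 2-fold below it without CD14. The others were Cd244a (471, 70.7 and 201 in the same order), a receptor gene of lymphoid and myeloid cells, the junction adhesion gene F11r (253, 45.1 and 106) and Tmem267 (861, 114 and 317). Tnfaip3, which encodes the ubiquitin-editing enzyme A20, stood at 1544 against 542 at 24 h but 2540 against 2942 at 6 h. Zfp36, which encodes an mRNA decay factor for cytokine transcripts, had 6695 against 1782. Dusp6 was the lower one, at 475 against 1085. Of 20 caspase and inflammasome genes 7 were higher and none lower, and the median was 0.84. The DNA sensor gene Aim2 had 461 against 115, and Casp4, whose product binds cytosolic LPS, had 5895 against 1915. Fas, a death receptor gene, stood at 893 against 299.

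At 24 h of LPS, NFAT target genes and the calcineurin pathway did not stand lower as groups with EGTA than without CD14 after quantile normalization. Of 9 NFAT target genes compared 4 were higher and none lower, and the median was 0.96 at 24 h. Bcl2l11, which encodes the death protein BIM, had 2473 with EGTA, 757 without CD14 and 1318 in wild type at 24 h, and 2449, 1322 and 1237 at 6 h. Gadd45b had 4441, 1552 and 3428, and the protease gene Ctsk, highly expressed in osteoclasts, had 966, 333 and 540. Of 9 osteoclast markers measured the summed level was 4846 with EGTA and 2699 without CD14. Acp5 gave 3224 and 1707 of these sums, Ctsk itself 966 and 333 and Tnfrsf11a 371 and 231. Mmp9 went the other way, at the floor with EGTA and 210 without CD14, as did Nfatc1 at 168 and 217, and Calcr was at the floor on both. The part of osteoclasts in the value of Ctsk was not tested. For Bcl2l11 and Ctsk the EGTA array lay above wild type and the CD14-deficient array below it, each by under 2-fold. At 6 h the list had 1 gene higher and 2 lower, with a median of 0.18. Of 13 calcineurin and NFAT pathway genes compared 1 was lower and none higher, with a median of 0.05 that was -0.22 with intensities as deposited and 0.14 with equal medians. At 6 h this pathway list had a median of -0.17, with 11 of 14 compared genes below 0 and 0 at least 2-fold apart. Rcan1, a calcineurin inhibitor gene that NFAT induces, had 414 with EGTA, 286 without CD14 and 450 in wild type at 24 h, and Nfatc1 had 168, 217 and 184. At 6 h Rcan1 stood at 837, 1043 and 1311 in the same order. Fkbp1a, which encodes the immunophilin FKBP12, was the lower member, at 979 against 2319. Calcium channel, pump and sensor genes had 1 of 16 higher, the pump gene Atp2a3 with 127 against 56.7, and a median of 0.04 that was -0.20 as deposited. As deposited none of the 16 was higher and 3 were lower, and 1 of 16 is close to the 6.09% of all compared genes that were higher.

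Marco, a scavenger receptor gene for bacteria and particles, had the widest gap in the other direction. Its intensity was 78.9 with EGTA, 2158 without CD14 and 73.2 in wild type at 24 h, and it was at the floor on all other arrays but the CD14-deficient one at 6 h, where it stood at 298. At 24 h it was 27.4-fold lower with EGTA. Of the 15 scavenger receptor genes compared, Marco and Stab1 (210 against 591) were lower and Mertk (2042 against 891) was higher, and with intensities as deposited 4 were lower. Pilra, an inhibitory receptor gene of myeloid cells, had 262 with EGTA, 1775 without CD14 and 280 in wild type, and 108, 312 and 109 at 6 h. C5ar1, the complement C5a receptor gene, had 298, 1198 and 450 at 24 h. The iron-scavenging protein gene Lcn2 had 649, 2764 and 908, and at 6 h 256, 1797 and 388. For all 4 genes EGTA lay within 2-fold of wild type and CD14-deficient cells lay above it.

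Antioxidant genes of the NRF2 programme made up the list with most genes lower with EGTA, 10 of 25 compared and none higher. Their median log2 difference was -0.83, or -0.65 and -0.66 relative to all genes with deposited intensities and with equal medians. Among brighter genes only, above the 75th percentile, it was -0.23. Gclm and Gclc encode the subunits of the enzyme that limits glutathione synthesis. Gclm had 206 with EGTA, 1238 without CD14 and 322 in wild type at 24 h, and 267, 781 and 306 at 6 h, a 6.00-fold gap at the later time. Its unstimulated levels were close, at 667 in wild type and 832 in CD14-deficient cells, so LPS was followed by lower Gclm in wild type and not without CD14. Gclc had 47.5, 223 and 53.7 at 24 h. Slc7a11, the cystine transporter gene, was at the floor with EGTA and in wild type at 24 h and at 194 without CD14, at least 5.07-fold lower with EGTA, after 55.6, 55.9 and 417 at 6 h in the order EGTA, wild type and CD14-deficient. The glutathione exporter gene Abcc1 had 304 against 1328, the glutathione reductase gene Gsr 389 against 1136 and the heme oxygenase gene Hmox1 3747 against 9515. At 6 h 6 of 25 were lower and none higher, and before LPS 1 of 24 was higher in wild type and none lower. The antioxidant response element, to which NRF2 binds, was written as TGACNNNGC and occurred in 12.4% of windows, and in 15.8% of lower, 19.4% of higher and 17.2% of all compared genes. The lower genes thus held it no more often than the others. The window of Gclm is shown as that of the lower NRF2 gene with the widest measured gap. It lies at chr3:122245307-122245606 on the plus strand, with the match, on the opposite strand, in capitals 134 bases before the start.
Gclm: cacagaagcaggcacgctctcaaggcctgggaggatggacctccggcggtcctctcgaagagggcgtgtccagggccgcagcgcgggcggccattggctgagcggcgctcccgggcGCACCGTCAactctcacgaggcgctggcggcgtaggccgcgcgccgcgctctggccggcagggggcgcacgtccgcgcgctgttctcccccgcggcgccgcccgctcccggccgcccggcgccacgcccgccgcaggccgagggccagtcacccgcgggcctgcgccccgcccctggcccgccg

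Of 15 fatty acid synthesis genes 5 passed 2-fold downward and none upward, their median was -0.74, and all 15 lay below 0 after quantile normalization. Scd2, a desaturase gene, had 1863 with EGTA, 7017 without CD14 and 655 in wild type at 24 h, and 2243, 3431 and 2424 at 6 h. Fasn, the fatty acid synthase gene, had 155, 339 and 56.3 at 24 h. For both genes EGTA and CD14 deficiency lay above wild type with LPS alone, and CD14 deficiency higher than EGTA. The desaturase genes Fads1 and Fads2 had another layout, since with 273 and 109 EGTA stood near the wild-type levels of 270 and 100 while CD14-deficient cells had 825 and 327. Before LPS, Fasn already stood at 340 in wild type and 716 without CD14, and Scd2 at 4625 and 8079. The list then had a median of -0.43 for wild type over CD14-deficient, with 2 of 16 at least 2-fold lower. At 6 h of LPS its median was -0.20, with 1 of 14 at least 2-fold lower with EGTA. Cholesterol synthesis genes gave none of 19 at least 2-fold apart, with a median of 0.03 that was -0.32 as deposited. They ranged from Idi1 at 1935 against 1147 to Sqle at 1092 against 1842. Sterol regulatory elements, written ATCACNCCAC, were too rare to describe, with 0.234% of windows, none of the higher genes, 0.316% of lower and 0.194% of all compared genes.

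Of 27 glycolysis and hypoxia genes 8 were lower with EGTA and 2 higher, with a median of -0.72. The oxygen-sensing hydroxylase gene Egln1 had 143 with EGTA, 517 without CD14 and 156 in wild type at 24 h, the adenylate kinase gene Ak4 had 136, 415 and 100, and the glucose transporter gene Slc2a1 had 812, 1913 and 916. All 3 were also lower in wild type than in CD14-deficient cells before LPS, where 9 of 27 genes of the list were at least 2-fold lower and the median was -0.42. Pfkfb3, which encodes an activator of glycolysis induced by LPS, went the other way with 1974, 603 and 1647. Vegfa, the endothelial growth factor gene, had 332, 114 and 151 and was thus above wild type with EGTA. Iron handling genes had 3 of 13 lower and none higher, with a median of -0.78, led by the heme transporter gene Slc48a1 at 818 with EGTA, 4248 without CD14 and 1372 in wild type.

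In a smaller set of genes it was the EGTA array that departed from wild type. Cxcr4, the receptor gene for CXCL12, had 916 with EGTA, 127 without CD14 and 142 in wild type at 24 h, and 391, 118 and 106 at 6 h. LPS was followed by lower Cxcr4 in wild type and CD14-deficient cells, from 425 and 510 before it. With EGTA it was instead above its unstimulated wild-type level at 24 h, and 7.20-fold above the CD14-deficient array. Genes of the ATF4 programme, which responds to shortage of amino acids and to stress, were higher in 6 of 21 with 1 lower, and had a median of 0.49 at 24 h and 0.48 at 6 h, again with 6 higher and 1 lower of 19. Asns, the asparagine synthetase gene, had 581 with EGTA, 184 without CD14 and 239 in wild type at 24 h, and Trib3, a regulator of that programme, had 201, 62.3 and 91.9. Chac1, a glutathione-degrading enzyme gene, had 111 with EGTA and was at the floor in the other 2 arrays. Ddit3, which encodes the stress factor CHOP, had 2364, 613 and 1612, so for this gene it was the CD14-deficient array that departed by over 2-fold. Genes of endoplasmic reticulum chaperones and the unfolded protein response did not move with these genes at 24 h. None of 25 was at least 2-fold apart, and the median was 0.00, or -0.13 as deposited and 0.23 with equal medians. At 6 h their median was 0.33, 21 of 25 lay above 0, and 2 were at least 2-fold higher with EGTA and none lower. The zinc-binding metallothionein genes Mt1 and Mt2 were lower with EGTA, Mt1 at 1382 against 3805 and 2992 in wild type, and Mt2 at 589 against 1632 and 1621. In both, the CD14-deficient array stood within 2-fold of wild type.

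A set of genes departed from wild type in the same direction in both conditions, 20 at least 2-fold above the shared wild-type array and 24 below it. Of these 44, 8 also differed by at least 2-fold between EGTA and CD14 deficiency. Both differences share that array, so the counts are not read further. Sgk1, a kinase gene, had 3487 with EGTA, 3395 without CD14 and 1125 in wild type at 24 h, but at 6 h 1385, 3183 and 596. Serpinb2, an inhibitor of plasminogen activators, had 88.5, 170 and 693 at 24 h. The centriole kinase gene Plk4 had 110, 98.1 and 291, and the chemokine receptor gene Cxcr3 187, 132 and 490.

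The pair at 6 h of LPS shares no array with the pair at 24 h and gave 261 genes higher with EGTA (3.84%) and 209 lower (3.07%) of 6804 compared. Of the 417 genes higher at 24 h, 374 were compared at 6 h, where 335 (89.6%) had the same sign and 149 (39.8%) were at least 2-fold different the same way. Their median log2 difference was 1.42 at 24 h and 0.81 at 6 h. Of the 384 lower genes 342 were compared, 303 (88.6%) had the same sign and 71 (20.8%) were at least 2-fold lower, with medians of -1.27 and -0.49. Since these genes were chosen at 24 h, smaller values at 6 h may come in part from that choice. Examples with wide gaps at both times were Cnn3, a calponin gene, with 633 against 47.2 at 24 h and 1976 against 126 at 6 h, and Gdf3, a growth factor gene, with 119 against 606 and 77.9 against 784. Others opened late. Vcam1, an adhesion molecule gene, had 1156 against 165 at 24 h but 318 against 344 at 6 h, and Slc6a4, the serotonin transporter gene, 641 against 57.3 after 88.2 against the floor. Other probe sets of Vcam1 stood at 723 against 149 and at 252 against 163 at 24 h, log2 differences of 2.28 and 0.63. Nrp1, a semaphorin receptor gene, had 347 against 1591 at 24 h and 809 against 649 at 6 h. The neutrophil attractants Cxcl1 and Cxcl2 had their gap early, at 287 against 2115 and 1207 against 8583 at 6 h, and stood at 71 against 116 and 1010 against 1641 at 24 h. In 4 genes the direction at 6 h was opposite and at least 2-fold, namely Il6, Thbs1, Egr2 and Spic, and none of the lower genes did this.

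**Figure D4:**
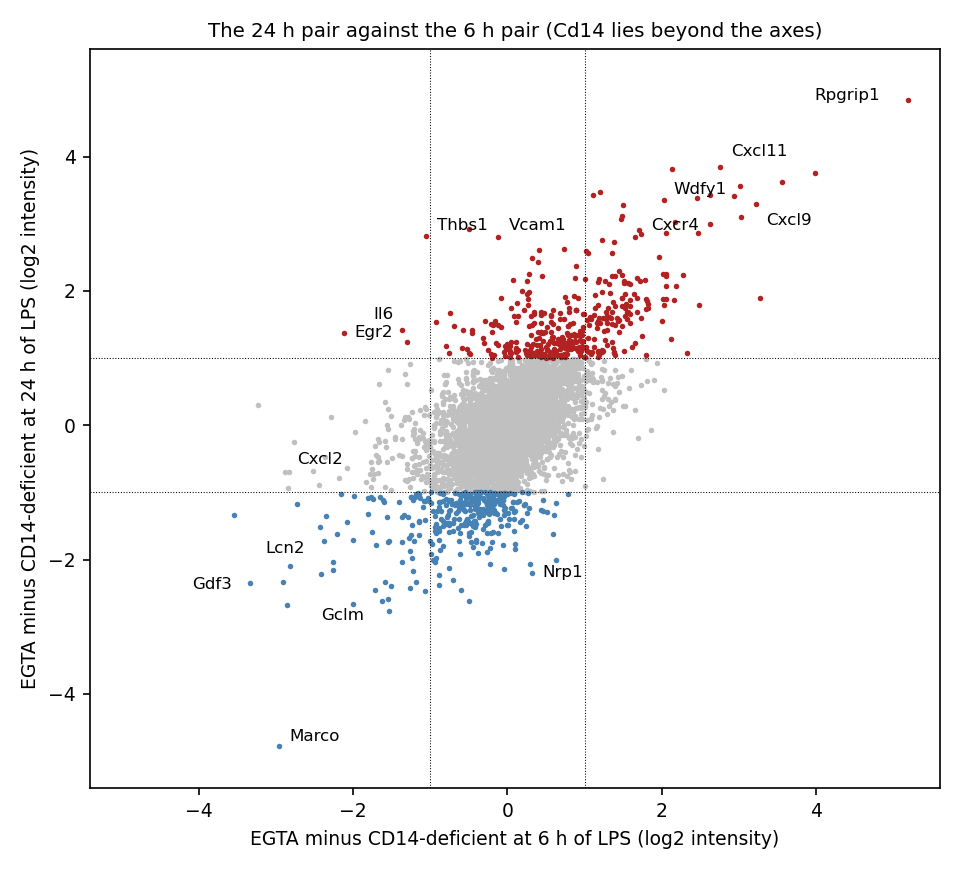
Log2 difference of EGTA minus CD14-deficient at 6 h of LPS (x axis) and at 24 h (y axis) for genes compared at both times, 1 array for each of the 4 conditions; red and blue mark genes at least 2-fold higher or lower at 24 h, and dotted lines mark 2-fold. Most coloured points lie nearer to 0 at 6 h than at 24 h, Cxcl9 lies at 3.22 and 3.30, Marco at -2.96 and -4.77, and Thbs1, Il6 and Egr2 fall in the opposite quadrant.

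Part of the difference was there without LPS. Between the unstimulated arrays, 217 of 6782 genes (3.2%) were at least 2-fold higher in wild type than in CD14-deficient cells and 95 (1.4%) lower. Of 290 of the higher genes compared there, 70 (24.1%) differed the same way by at least 2-fold and 3 the opposite way. Of 350 of the lower genes, 23 (6.57%) and 3 did so. In all 3 pairs, at 0 h, 6 h and 24 h, 36 genes passed 2-fold upward and 6 downward. Some of these hardly responded to LPS or EGTA. Rpgrip1, a cilium gene, had 1607, 1313 and 1226 in wild type at 0 h, 6 h and 24 h and 1400 and 1107 with EGTA, against 45 and then the floor in CD14-deficient cells, at least 28.9-fold apart at 24 h. This gap rests on 1 probe set, since all other probe sets of Rpgrip1 were at the floor on both arrays of the 24 h pair. Erdr1 had 1561 with EGTA and 1201 in wild type at 24 h against 127 without CD14, and 2038 against 196 before LPS. Wdfy1, an adaptor gene of TLR signalling, had 884 and 950 against 74.6, and 633 against 51.4 before LPS. For these 3 genes, by the probe set used, the wild-type arrays lay above all CD14-deficient arrays with a wide gap. Gdf3 was their counterpart among the lower genes, between 77.9 and 122 on the 5 wild-type arrays and between 606 and 1125 on the CD14-deficient ones. Cxcl11, Il10 and Marco in contrast were dim in both unstimulated arrays, at no more than 92.5.

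**Figure D5:**
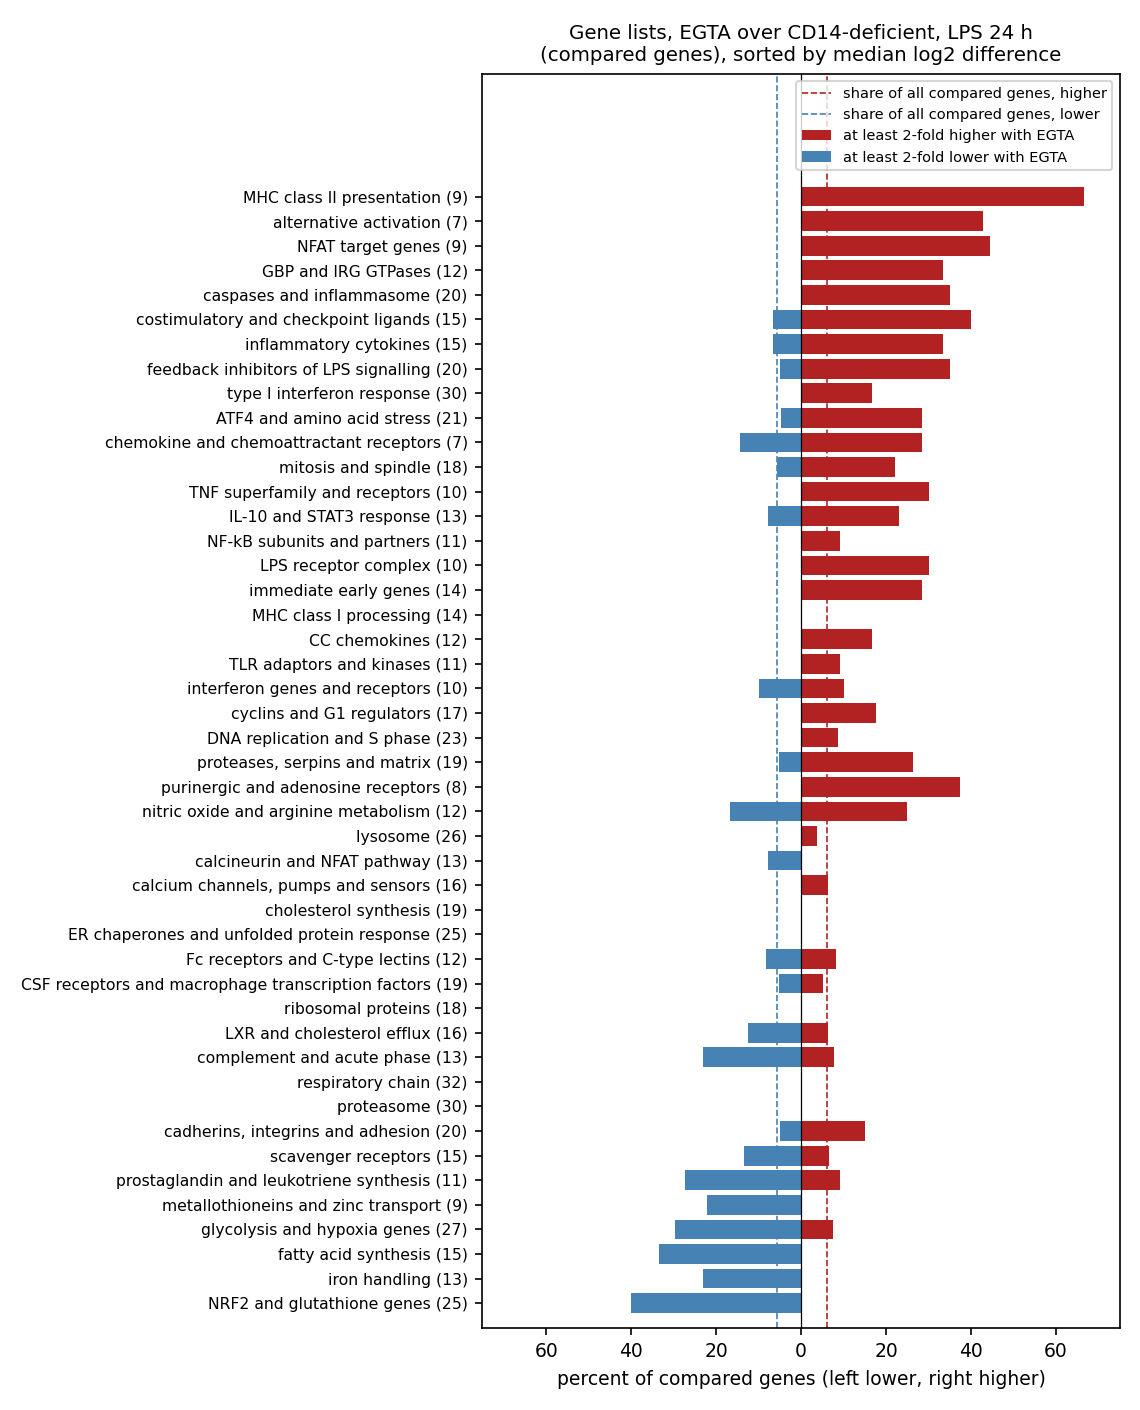
Share of compared genes of each list that were at least 2-fold lower (left) or higher (right) with EGTA than in CD14-deficient cells after 24 h of LPS, for lists with at least 5 compared genes (number in brackets), sorted by median log2 difference; dashed lines give the shares over all genes, 5.61% and 6.09%. MHC class II presentation has 6 of 9 higher at the top, and NRF2 and glutathione genes have 10 of 25 lower at the bottom.

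Housekeeping groups hardly differed. Respiratory chain genes (32 compared), proteasome genes (30) and ribosomal protein genes (18) had none at least 2-fold apart by the probe set used, with medians of -0.16, -0.18 and -0.09. As deposited 1 respiratory chain gene and 1 ribosomal protein gene were lower. Another probe set of the proteasome gene Psmd6 stood at 1429 against 169, a log2 difference of 3.08, where the one used gave -0.43. With equal array medians these medians were above 0, at 0.17, 0.11 and 0.29.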

How the data were processed

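Total RNA of the 8 samples was measured on Affymetrix arrays, each labelling starting from 0.3 µg. The authors deposited linear-scale intensities of 22690 probe sets per array, and the submitters' processing notes name MAS5 without a version. Scaling to a common target and detection calls are not given in the sources used here. Trimmed means ran from 314 to 527 (427 for EGTA and 467 for CD14-deficient at 24 h), and the ratios of 3' to 5' probe sets were alike for this pair (actin 1.18 and 1.2, Gapdh 0.711 and 0.774).

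The 8 arrays were quantile normalized, which takes away a shift common to all genes. Dimmer values were lifted to the 40th percentile, an intensity of 38.4, and log2 was taken. A fold with 1 array at that floor is given as "at least". Of the probe sets, 20393 named 1 gene, 691 several and 1606 were not listed. Of the first, 20364 matched a RefSeq gene table by identifier, covering 12394 genes. A gene took its probe set of highest mean, and was compared where its brighter array exceeded the median of 88.2. No test across samples was possible with 1 array per group. The procedure was tested on simulated data. Python 3.11.15, numpy 2.4.6, pandas 2.3.3 and matplotlib 3.10.9 were used.

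Gene lists (58, with 1049 genes, 911 measured) and the genes compared were chosen with earlier results of these data known. Named genes were the 15 widest gaps in each direction, the 10 widest bounds, the 4 widest in each list, a fixed set of cytokine, NFAT and lipid genes, the 10 widest in both times, up to 5 opposite between times, and up to 5 opposite or alike against wild type. Cd274, Chac1, Dusp6, Gsr, H2-Ab1, Mki67, Oas2, Slc2a1, Tnfaip3, Vegfa and Vsir were named outside this rule, after their values were seen. Promoter windows came from RefSeq (GRCm38.p6). Alternatives changed the scaling, the arrays normalized together, the floor, the probe set and the filter on dim genes.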

Additional observations from a re-analysis of the deposited data

Results flagged for a closer look

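In 4 genes the EGTA array lay at least 2-fold above the one without CD14 after 24 h of LPS and at least 2-fold below it at 6 h. With 1 array per condition the difference between the times was not tested. Il6, a cytokine gene, had a log2 difference of 1.42 at 24 h and -1.36 at 6 h. Its intensity without CD14 was 2510 at 6 h and 131 at 24 h, and with EGTA 977 and 350. Thbs1, which encodes the matrix protein thrombospondin, had 2.82 and -1.05, with 260 and then 92.1 without CD14 and 126 and then 652 with EGTA. Egr2, an immediate early gene, had at least 1.37 at 24 h, where it was at the floor without CD14, and -2.11 at 6 h. Spic, a transcription factor gene of iron-recycling macrophages, had 1.24 at 24 h, and at 6 h it was at the floor with EGTA and gave -1.30 as a bound.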

How the results depend on the processing

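Of the 417 higher and 384 lower genes, the counts became 278 and 768 with intensities as deposited, and 230 and 167 where the brighter array had to exceed the 75th percentile, which compares fewer genes. Under the other 7 alternatives the counts ran from 369 to 571 higher and from 289 to 403 lower, each within 1.5 times. The 164 named genes at least 2-fold different kept their direction under every alternative that gave them a value. Most were named for wide gaps on these same arrays, so their kept direction says little about genes with smaller gaps. Of the 164 named genes, 150 were still at least 2-fold different as deposited, 159 with equal medians, 151 with the mean over a gene's probe sets and 106 under the 75th percentile filter, which left out the rest. Of 78 other probe sets of these genes that were bright enough to be compared, 77 had the same sign, and that of Ifngr2 was opposite. Dimmer probe sets, some of them at the floor on both arrays, were not counted. Among genes of the lists under 2-fold apart, 22 had another probe set at least 2-fold apart. With equal medians the counts of higher genes rose from 2 to 4 for CC chemokines and from 1 to 4 for lysosome genes, and as deposited that of DNA replication genes went from 2 to 0 and the lower iron handling genes from 3 to 5. Medians of lists near 0 changed sign with scaling, as given beside them. No array could be left out and no paired analysis was possible because each group has 1 array. Values near the floor of 38.4 have no detection call, so folds over them are imprecise.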

Other observations

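Some genes with wide gaps belong to groups not described above. Tpx2, which encodes a spindle assembly protein, had 2021 with EGTA, 188 without CD14 and 1982 in wild type at 24 h of LPS, and Mki67, a proliferation marker gene, had 390, 185 and 331. Of 18 mitosis and spindle genes compared 4 were higher with EGTA and 1 lower, with a median of 0.47, while at 6 h the median was -0.46. The cyclin gene Ccnd2 had 507 with EGTA, 114 without CD14 and 895 in wild type, and Mxd1, an antagonist of MYC, had 278, the floor and 653. Of 23 DNA replication genes 2 passed 2-fold upward and none downward, and their median of 0.13 became -0.23 with intensities as deposited.

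Of 8 genes compared for nucleotide and adenosine receptors and enzymes, 3 were higher with EGTA and none was lower. They were the receptor genes P2ry14, at 4472 against 1506, and P2ry12, at 297 against 102, and Entpd1, the gene of the ectonucleotidase CD39, at 953 against 382. Lhx2, a homeobox gene, had 791 with EGTA, 56 without CD14 and 629 in wild type, and was 14.1-fold higher with EGTA. Ddx4, an RNA helicase gene known from germ cells, had 794, 74 and 629. Kdr, a VEGF receptor gene, had 760, 93.9 and 854. Acp5, the tartrate-resistant acid phosphatase gene, had 3224 with EGTA, 1707 without CD14 and 1307 in wild type, so both conditions lay above wild type. Of 26 lysosome genes 1 was higher, the galactosidase gene Glb1 with 1047 against 384.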
